A study of Solanum lycopersicum with 8 samples.

Results

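The response of tomato leaves to gibberellin was followed in the cultivar M82, in 4 RNA libraries of young seedling leaves out of the 8 libraries of the study. All 4 M82 libraries came from seedlings that had received paclobutrazol, an inhibitor of gibberellin synthesis, at 10 mg/l once a day for 3 days. The 2 control libraries had paclobutrazol alone. The 2 GA3 libraries came from seedlings that were also given gibberellic acid (GA3) once at 100 µM, and their leaves were taken 3 hours later. The other 4 libraries are of the procera mutant proΔGRAS under the same treatments, and were used for the shared estimate of the spread and in 1 comparison at the end. The M82 libraries were chosen by their column names alone, not by any measured value. The comparison asks which transcripts differ 3 hours after GA3 in leaves whose own synthesis of the hormone had been blocked.

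Gibberellins are diterpenoid growth hormones that promote stem and leaf expansion. The hormone binds the receptor GID1, and the receptor then draws DELLA proteins, repressors of growth, to the F-box protein SLY1 for degradation. In plants the pathway is known for feedback: active gibberellin lowers transcripts of enzymes that make it and of its own receptors, and raises transcripts of enzymes that inactivate it. In tomato PROCERA encodes the DELLA protein, so that paclobutrazol is expected to keep DELLA high in M82 leaves and GA3 to remove it. This is background, and none of it is assigned to an identifier below: the deposited table gives identifiers without names, and 0 of its 34722 identifiers could be found among the 41476 genes of the reference table. Genes are described by identifier, of which the 2 digits after "Solyc" are the chromosome and the digits after "g" are a running number along it. For the same reason the leaf label could not be checked against leaf marker genes.

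Total counts were 14696338 in control library 1, 14395465 in control library 3, 17757386 in GA3 library 1 and 17585593 in GA3 library 2. The library numbers are those of the table. Control library 3 and GA3 library 2 stood apart from the other 6: the share of counts held by the 100 highest genes was 45.5% and 50.3% there, and 31.4% to 41.3% elsewhere. The 2 control libraries were also the least alike of any group, with a Pearson correlation of 0.945 in log2 CPM across genes against 0.964 to 0.970 in the other groups. Levels below are CPM, counts scaled to library size with edgeR's TMM factors. Leaf RNA was measured in bulk, so fewer cells of a type and less RNA per cell cannot be told apart.

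After GA3, 3 identifiers rose at an adjusted p under 0.05, and none fell. They were 3 of 18340 genes tested, or 0.0164%, by edgeR's quasi-likelihood test with Benjamini-Hochberg adjustment. In each, both GA3 libraries lay at more than 4 times the level of both control libraries. With DESeq2, which called 108 genes (0.589%), 92 were higher and 16 lower (0.502% and 0.0872%), and the 3 were among them. Without adjustment, p was under 0.05 for 840 genes with higher and 558 with lower levels, which together are 7.62% of those tested.

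Solyc10g005210.2, on chromosome 10, had the smallest p. It was at 2.48 CPM in control library 1 and 2.42 CPM in control library 3, and at 11.99 CPM in GA3 library 1 and 11.2 CPM in GA3 library 2. The 2 libraries of each group almost coincided. Its log2 fold change was 2.24 (SE 0.251, adjusted p = 0.0471 by edgeR), and its ratio was 2.07 on the log2 scale in the pair of libraries of number 1 and 2.01 in the other pair.

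Solyc07g062710.2, on chromosome 7, had 4.44 and 2.99 CPM in control libraries 1 and 3 and 20.9 and 20.0 CPM in GA3 libraries 1 and 2. The GA3 libraries were closer to each other than the control libraries were. The log2 fold change was 2.45 (SE 0.283, adjusted p = 0.0471 by edgeR).

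Solyc04g081790.2, on chromosome 4, had 2.74 and 3.55 CPM in the control libraries and 18.68 and 16 CPM in the GA3 libraries. The groups were far apart here too, with a log2 fold change of 2.47 (SE 0.285, adjusted p = 0.0471 by edgeR). With any 1 library left out, the log2 fold changes of these 3 stayed between 2.16 and 2.77. Whether they are called does depend on single libraries. Without any 1 of GA3 libraries 1 and 2, control library 3 or the 4 mutant libraries no gene was called, and the adjusted p-values of these 3 then ran up to 0.21. Without control library 1 there were 22 calls, 12 higher and 10 lower, and Solyc04g081790.2 was no longer among them (adjusted p = 0.0508).

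A further 14 identifiers had adjusted p-values between 0.05 and 0.0557, of which 13 were higher and 1 was lower after GA3. Among the 276 genes higher and 83 lower at an unadjusted p under 0.01 (1.5% and 0.453% of those tested, 1.96% in all), genes of every level were present. At mean levels of 5 to 20 CPM, 122 were higher and 34 lower of 5672 tested, with medians of 1.21 and -1.18 on the log2 scale. At 100 CPM and above, 15 were higher and 3 lower of 1389 tested, with medians of 1.06 and -1.14.

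**Figure D1:**
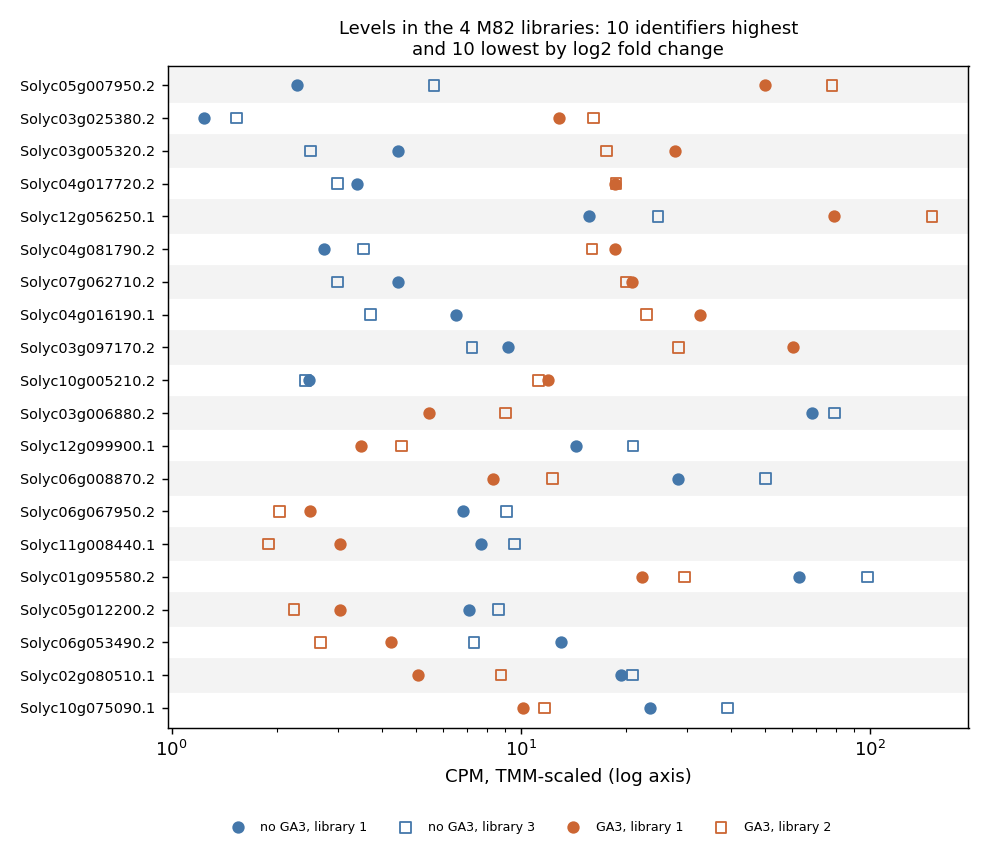
Level in CPM on a log axis of 20 identifiers (rows) in the 4 M82 libraries. Blue marks are control libraries and orange marks GA3 libraries, filled circles are libraries of number 1 and open squares the other library. The upper 10 rows were chosen as the highest and the lower 10 as the lowest log2 fold changes, so that the separation of the colours is set by the choice.

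The 10 identifiers with the highest log2 fold changes were taken from 210 genes at an unadjusted p under 0.01, with a mean level of 5 CPM or more and with groups that did not overlap. Groups did not overlap, higher or lower, in 35.9% of all genes tested. The 10 ran from 2.24 to 4.03 on the log2 scale (4.72-fold to 16.3-fold). They include the 3 called genes. All 10 passed with DESeq2, which called 0.502% of all genes tested as higher. DESeq2 used the same counts that chose the 10, so this pass adds no separate support. The other 7 did not pass with edgeR in the fit of the 4 groups (adjusted p = 0.0557 to 0.247).

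Solyc05g007950.2, on chromosome 5, had the highest fold change. It was at 2.29 and 5.65 CPM in control libraries 1 and 3, and at 49.97 and 78.04 CPM in GA3 libraries 1 and 2. The ratio was 4.18 on the log2 scale in the pair of number 1 and 3.67 in the other pair. The fitted log2 fold change was 4.03 (SE 0.692, adjusted p = 0.126 by edgeR and 2.39e-08 by DESeq2).

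Solyc03g025380.2, on chromosome 3, had 1.24 and 1.53 CPM in the control libraries and 12.9 and 16.1 CPM in the GA3 libraries. Its log2 fold change was 3.39 (SE 0.731, adjusted p = 0.241 by edgeR). Solyc12g056250.1, on chromosome 12, was the most abundant in reads of the 10, at 15.7 and 24.7 CPM without and 79.0 and 151 CPM with GA3. In it, as in Solyc05g007950.2, the higher library of each group was the one not numbered 1. The log2 fold change of Solyc12g056250.1 was 2.51 (SE 0.426, adjusted p = 0.114 by edgeR).

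Solyc03g005320.2 had 4.44 and 2.50 CPM in the control libraries and 27.7 and 17.6 CPM in the GA3 libraries (log2 fold change 2.69, SE 0.403, adjusted p = 0.061 by edgeR, or 0.0462 without control library 1). Here the library of number 1 was the higher in both groups. Solyc04g016190.1 showed the same order, with 6.53 and 3.71 CPM without and 32.7 and 22.9 CPM with GA3.

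Solyc04g017720.2 was even within groups, with 3.40 and 2.99 CPM in the control libraries and 18.6 and 18.7 CPM in the GA3 libraries (log2 fold change 2.54, SE 0.312, adjusted p = 0.0557 by edgeR). Solyc03g097170.2 had 9.21 and 7.27 CPM without GA3. With GA3 its libraries were at 60.3 and 28.3 CPM, and so more than 2-fold apart, although both were above both control libraries.

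The 10 lowest log2 fold changes, taken in the same way from 55 genes, ran from -3.35 to -1.52. None of these 10 passed with edgeR in the fit of the 4 groups (adjusted p = 0.0557 to 0.492), and 7 of them passed with DESeq2. DESeq2 called 0.0872% of all genes tested as lower, and here too it used the counts that chose the 10.

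Solyc03g006880.2, on chromosome 3, was the lowest of them. It had 68.4 CPM in control library 1 and 79.3 CPM in control library 3, against 5.47 CPM in GA3 library 1 and 9.05 CPM in GA3 library 2. Both pairs of libraries differed by more than 8-fold, with log2 ratios of -3.53 and -3.06. The log2 fold change was -3.35 (SE 0.603, adjusted p = 0.147 by edgeR and 1.81e-06 by DESeq2).

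Solyc12g099900.1, on chromosome 12, had the smallest p among genes with lower levels. It was at 14.4 and 21.0 CPM without and 3.48 and 4.56 CPM with GA3, a log2 fold change of -2.14 (SE 0.291, adjusted p = 0.0557 by edgeR). Without control library 1 it was called by edgeR (adjusted p = 0.0277).

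Solyc06g008870.2, on chromosome 6, had 28.1 and 50.3 CPM in the control libraries and 8.35 and 12.4 CPM in the GA3 libraries (log2 fold change -1.92, SE 0.32, adjusted p = 0.108 by edgeR). Solyc01g095580.2, on chromosome 1, had 62.7 and 98.5 CPM without and 22.2 and 29.5 CPM with GA3 (log2 fold change -1.64, SE 0.301, adjusted p = 0.147 by edgeR). Without control library 1 these 2 were called as well (adjusted p = 0.0277 and 0.0462). In both, as in Solyc03g006880.2 and Solyc12g099900.1, the library of number 1 was the lower one in each group. Solyc02g080510.1 had 19.3 and 20.9 CPM without and 5.08 and 8.77 CPM with GA3. Solyc10g075090.1 had 23.5 and 39.2 CPM without and 10.2 and 11.7 CPM with GA3.

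The remaining 4 were at under 15 CPM in all 4 libraries. Solyc06g067950.2 passed with DESeq2 (adjusted p = 0.0302), at 6.86 and 9.12 CPM without and 2.49 and 2.04 CPM with GA3. Solyc11g008440.1, Solyc06g053490.2 and Solyc05g012200.2 passed with neither tool, and their log2 fold changes were -1.80, -1.55 and -1.56.

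Agreement between pairs of libraries was examined in 11155 genes whose mean over the 4 M82 libraries was 5 CPM or more. One pair was control library 1 with GA3 library 1, the other control library 3 with GA3 library 2. Only the first pair shares a number, and the sources do not say that a number marks plants grown or handled together. Ratios were taken with 0.5 CPM added to both levels.

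The GA3 library was 2-fold or more higher in both pairs for 112 genes (1.0%) and 2-fold or more lower in both for 63 (0.565%). The sign was opposite at that size in 9 genes. The pair of number 1 alone had 262 genes higher and 207 lower, and the other pair 340 and 272. The 112 were 42.7% and 32.9% of the genes higher in the pairs, and the 63 were 30.4% and 23.2% of those lower. Scaled by library totals only, 88 were higher and 77 lower.

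The crossed pairing, which sets each control library against the other GA3 library, gave another count. There 93 genes were higher and 22 lower in both ratios, and 159 had opposite signs. The 2 control libraries themselves were 2-fold or more apart in 1078 of the 11155 genes (9.66%), more than the libraries of number 1 with and without GA3 (469, or 4.20%) or the other pair (612, or 5.49%). The 2 GA3 libraries were that far apart in 328 genes (2.94%). In all 4 ratios of a GA3 to a control library, 69 genes were 2-fold or more higher and 13 were 2-fold or more lower.

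**Figure D2:**
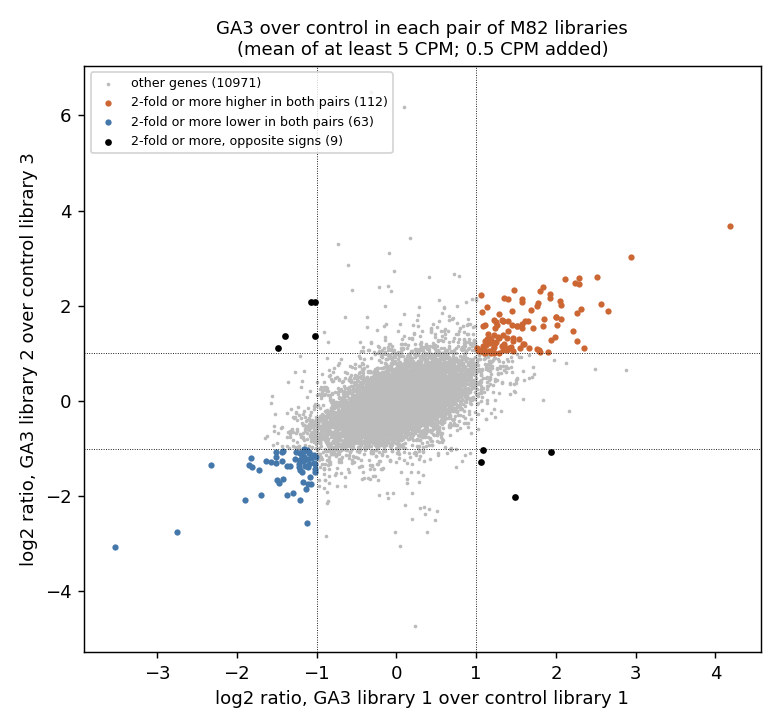
Log2 ratio of GA3 to control library in the pair of number 1 (horizontal) and in the other pair (vertical) for 11155 genes, 1 point each, with dotted lines at 2-fold. Orange points (112) were 2-fold or more higher in both pairs, blue points (63) lower in both, and the 9 black points had opposite signs.

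Families often lie side by side in a genome, so runs of identifiers were sought among the genes with 2-fold changes in both pairs, on 1 chromosome and with running numbers at most 50 apart. Of the 112 higher genes, 17 lay in 8 such runs, and of the 63 lower genes, 4 lay in 2 runs. How many of any other genes would lie in such runs was not worked out. The counts therefore do not show that neighbours change together. One run, on chromosome 5, held 3 members, Solyc05g005950.2, Solyc05g005960.2 and Solyc05g005990.2. Only 4 identifiers tested lie in its span.

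Solyc05g005960.2 was at 13.8 and 20.7 CPM in control libraries 1 and 3 and at 42.0 and 93.8 CPM in GA3 libraries 1 and 2 (log2 fold change 1.98, SE 0.388, adjusted p = 0.18 by edgeR and 0.000515 by DESeq2). Solyc05g005950.2 had 33.2 and 48.4 CPM without and 80.4 and 148 CPM with GA3 (log2 fold change 1.48, SE 0.361, adjusted p = 0.318 by edgeR and 0.0221 by DESeq2). Solyc05g005990.2 had 3.40 and 5.17 CPM without and 8.35 and 11.02 CPM with GA3, and passed with neither tool. In all 3 the order of the 4 libraries was the same, from control library 1 to GA3 library 2. Whether reads were split between similar copies was not tested.

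The other runs were pairs. On chromosome 2 there were Solyc02g063000.2 with Solyc02g063030.2, Solyc02g080210.2 with Solyc02g080220.2, and Solyc02g086820.2 with Solyc02g086840.2. Single pairs lay on chromosome 3 (Solyc03g114710.2 and Solyc03g114720.2), chromosome 4 (Solyc04g074410.1 and Solyc04g074450.1) and chromosome 7 (Solyc07g041910.2 and Solyc07g041920.2), with a further one on chromosome 5 (Solyc05g051240.1 and Solyc05g051280.2). The pairs with lower levels were Solyc01g098100.2 with Solyc01g098150.2 and Solyc06g024350.1 with Solyc06g024380.1. None of these identifiers was called by edgeR in the fit of the 4 groups. Only the pairs of chromosomes 3, 4 and 5 passed with DESeq2. Solyc02g086820.2 overlapped between groups, with 5237 CPM in control library 3 and 4628 CPM in GA3 library 1. Unadjusted p by edgeR was 0.126 for it, 0.091 for Solyc02g080210.2 and 0.202 for Solyc06g024350.1.

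The largest gains and losses in CPM, among genes at an unadjusted p under 0.05 with no overlap, were in abundant transcripts whose fold changes were smaller. None of the 6 passed with either tool. Solyc07g052480.2 was at 294 and 347 CPM in the control libraries and at 554 and 826 CPM in the GA3 libraries, a log2 fold change of 1.11 (SE 0.436, adjusted p = 0.62 by edgeR). Solyc06g069730.2 was at 680 and 705 CPM without and 996 and 1374 CPM with GA3. Solyc01g104950.2 was at 679 and 773 CPM without and 1230 and 1114 CPM with GA3.

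The 3 largest losses were in Solyc05g053550.2, Solyc06g082140.2 and Solyc02g081190.2. Solyc05g053550.2 was even within groups, with 720 and 730 CPM without and 388 and 360 CPM with GA3 (log2 fold change -0.96, SE 0.422, adjusted p = 0.653 by edgeR). Solyc06g082140.2 had 884 and 543 CPM without and 428 and 384 CPM with GA3. In Solyc02g081190.2 control library 3 stood apart at 693 CPM, with control library 1 at 283 CPM and the GA3 libraries at 225 and 273 CPM.

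Transcripts counted on only 1 side had low counts. Of 875 genes without a count in both control libraries but counted with GA3, 160 had a count in both GA3 libraries. Among these the most counts were 6 and 13 in Solyc03g094040.2 and 11 and 7 in Solyc02g087270.2. Against a floor of 3 counts over the control group, their mean levels with GA3 were 5.74-fold and 5.08-fold higher. The first was not tested, and the second had an edgeR adjusted p of 0.534. In the other direction, 921 genes had no count in both GA3 libraries but were counted without GA3, and 154 of them were counted in both control libraries. Solyc09g008750.1 had 11 and 21 counts in control libraries 1 and 3 and none with GA3, 13.01-fold above the floor of the GA3 group (edgeR adjusted p = 0.377). Solyc01g009260.1 had 3 and 11 counts without and none with GA3, 5.84-fold above that floor (edgeR adjusted p = 0.530). Such a floor covers counting error on the side without counts only, not that of the counted side or the spread between libraries.

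A list of 38 identifiers of tomato genes studied in the literature was described next, chosen with earlier results of these data known. It was picked by hand for gibberellin synthesis, inactivation and signalling and for jasmonate and wound defence. These roles were recalled from the literature and could not be checked here, so none is given for a single identifier. The table holds 36 of them and 26 had enough counts to be tested. The 10 that did not were at 18 counts or fewer in every M82 library. None of the 26 was called by edgeR, where 0.0164% of all genes tested were. With DESeq2 5 passed, 2 of them higher and 3 lower, where 0.502% and 0.0872% of all genes tested did. At an unadjusted p under 0.05 there were 9 higher and 7 lower, where 4.58% and 3.04% of all genes tested were. Groups did not overlap in 10 higher and 7 lower (19.3% and 16.6% of all genes). The median log2 fold change of the 26 was -0.13, against -0.0026 over all genes tested. Since the list was picked by hand and mixes several groups of genes, its shares and its median describe the list only.

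The lowest fold change of the list was in Solyc06g035530.2, on chromosome 6. It was at 5.09 and 4.12 CPM in the control libraries and at 0.442 and 0.281 CPM in the GA3 libraries. The GA3 libraries held 8 and 4 counts. The log2 ratios of the pairs were -2.57 and -2.56, but the 0.5 CPM added exceeds both GA3 levels and makes these ratios smaller. The fitted log2 fold change was -3.63 (SE 0.674, adjusted p = 0.152 by edgeR and 0.000738 by DESeq2). Solyc03g006880.2 and Solyc06g008870.2, described above, are the other 2 that were lower with DESeq2.

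A further 4, with groups that did not overlap, were lower after GA3 without passing with either tool. Solyc09g074270.2, on chromosome 9, had 14.1 and 11.2 CPM without and 4.92 and 5.61 CPM with GA3 (log2 fold change -1.27, SE 0.33, adjusted p = 0.36 by edgeR). Solyc01g098390.2, on chromosome 1, had 41.1 and 56.5 CPM without and 26.4 and 29.8 CPM with GA3 (log2 fold change -0.80, SE 0.245, adjusted p = 0.50 by edgeR). The control libraries lay above the GA3 libraries in both, at a smaller ratio in the second.

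Solyc03g119910.2 had 6.07 and 6.54 CPM without and 2.98 and 4.07 CPM with GA3. Solyc04g078390.1 had 47.9 and 63.5 CPM without and 29.3 and 38.5 CPM with GA3. Their log2 fold changes were -0.84 and -0.72.

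Among identifiers of the list with higher levels, Solyc02g089350.2, on chromosome 2, had 118 and 70.2 CPM in control libraries 1 and 3 and 351 and 298 CPM in GA3 libraries 1 and 2. Its log2 fold change there was 1.79 (SE 0.405, adjusted p = 0.258 by edgeR and 0.00237 by DESeq2). Solyc09g008670.2, on chromosome 9, had 4.44 and 9.93 CPM without and 24.8 and 21.9 CPM with GA3 (log2 fold change 1.71, SE 0.387, adjusted p = 0.258 by edgeR and 0.0122 by DESeq2). Both GA3 libraries were more than 2-fold above both control libraries in these 2.

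Solyc11g011260.1, on chromosome 11, had 100.6 and 125.9 CPM without and 192 and 188 CPM with GA3, a log2 fold change of 0.75 (SE 0.23, adjusted p = 0.502 by edgeR). Solyc07g007870.2, on chromosome 7, had 40.88 and 40.93 CPM in the control libraries and 74.8 and 81.9 CPM in the GA3 libraries (log2 fold change 0.94, SE 0.216, adjusted p = 0.264 by edgeR). Its 2 control libraries were nearly equal. Solyc02g085730.2 had 129 and 196 CPM without and 281 and 314 CPM with GA3, and Solyc12g006460.1 had 14.4 and 9.36 CPM without and 19.5 and 26.2 CPM with GA3.

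Solyc07g056670.2, Solyc12g010020.1, Solyc03g122340.2 and Solyc03g020050.2 were also higher in both GA3 libraries than in both control libraries. Solyc12g010020.1 had 1.44 and 2.34 CPM without and 6.19 and 6.25 CPM with GA3. Solyc07g056670.2 differed widely between the control libraries, at 0.131 and 1.21 CPM, and was at 2.38 and 2.88 CPM with GA3. Solyc03g020050.2 was under 1 CPM throughout.

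The other 9 overlapped between groups. In 3 neighbouring identifiers of chromosome 8 the control libraries differed more than the groups did. Solyc08g074620.1 was at 371 CPM in control library 1 and 9.04 CPM in control library 3, with GA3 libraries at 224 and 92.7 CPM. Solyc08g074630.1 had 17.2 and 3.63 CPM in the control libraries, and Solyc08g074680.2 had 9.34 and 1.94 CPM. Control library 3 was the lowest of the 4 in all 3. The fitted log2 fold change of Solyc08g074620.1 was -0.26 with all libraries and 4.13 without control library 1, so that no direction is given for it.

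**Figure D3:**
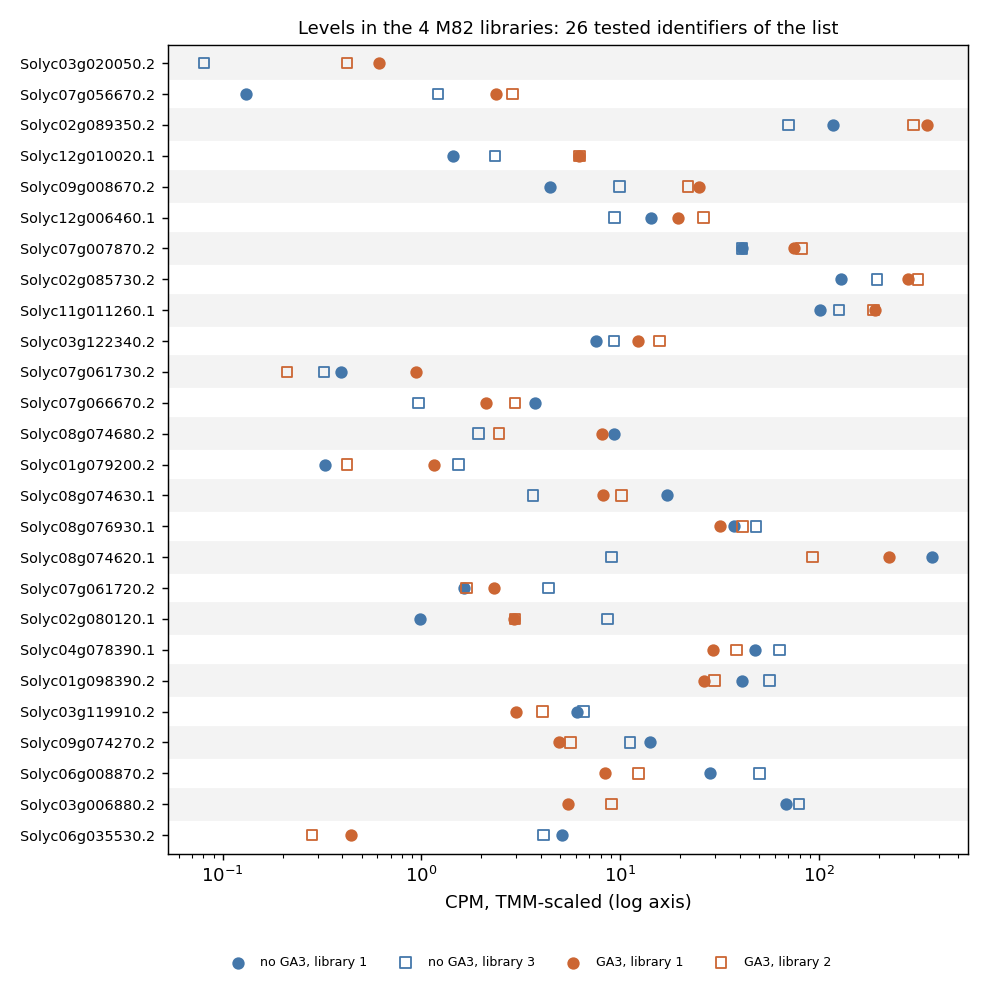
Level in CPM on a log axis of the 26 tested identifiers of the list (rows, ordered by log2 fold change) in the 4 M82 libraries, marked as control (blue) or GA3 (orange) and as number 1 (filled circle) or the other library (open square). Control library 1 of Solyc03g020050.2 had no count and is not drawn. The colours separate in 17 rows and mix in the other 9.

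The GA3 effect in proΔGRAS was set beside that in M82. The 2 effects share no library, but the mutant libraries entered the estimate of the spread behind the p-values that helped to choose the identifiers. For the 10 highest, the mutant log2 fold changes ran from -0.037 to 2.01 with a median of 0.48, and 9 of 10 were above 0, where 48.6% of all genes tested were. For the 10 lowest they ran from -0.95 to 0.40 with a median of 0.043, and 5 of 10 were below 0. No gene was called for GA3 in the mutant (0%, edgeR), and p without adjustment was under 0.05 for 489 genes (2.67%).

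In the mutant, Solyc07g062710.2 had 12.8 ± 1.5 CPM without and 12.4 ± 2.24 CPM with GA3 (SD, n = 2), so that its log2 fold change was -0.037 (SE 0.26). Solyc10g005210.2 was at 7.83 ± 0.165 and 11.5 ± 0.0196 CPM, and Solyc04g081790.2 at 15.6 ± 1.76 and 24.4 ± 6.12 CPM. The mutant mean without GA3 lay between the M82 control and GA3 libraries in all 3. Solyc05g007950.2 had the highest mutant log2 fold change of the 10 highest, 2.01 (SE 0.62), from 11.3 ± 6.57 to 45.5 ± 34.1 CPM, with wide spread between its libraries. Of the 26 listed identifiers, 15 had mutant log2 fold changes above 0 and 11 below. Solyc09g008670.2 had a larger fitted rise in the mutant than in M82 (3.59 against 1.71, mutant adjusted p = 0.15 by edgeR). Its mutant levels went from 2.62 ± 0.54 to 31.7 ± 10.8 CPM. The difference of the 2 effects, M82 minus mutant, did not pass (-1.88, SE 0.549, adjusted p = 0.994 by edgeR). Mutant values were also larger in Solyc12g010020.1 (2.84 against 1.73) and Solyc02g085730.2 (1.67 against 0.88), and these differences did not pass either. In Solyc02g089350.2 the mutant value was the smaller, and within its SE of no change (-0.20, SE 0.392, against 1.79). Its mutant levels were 370 ± 165 CPM without and 322 ± 103 CPM with GA3.

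The difference of the 2 GA3 effects was tested as an interaction, and no gene passed (0%, edgeR). Before adjustment 689 genes (3.76%) had a p under 0.05. The smallest adjusted p was 0.546, reached by Solyc07g062710.2 (difference 2.49, SE 0.382) and Solyc04g017720.2 (difference 2.47, SE 0.419). For the 20 identifiers chosen as highest and lowest the M82 part of this difference had chosen them, and nothing is read from its size.

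**Figure D4:**
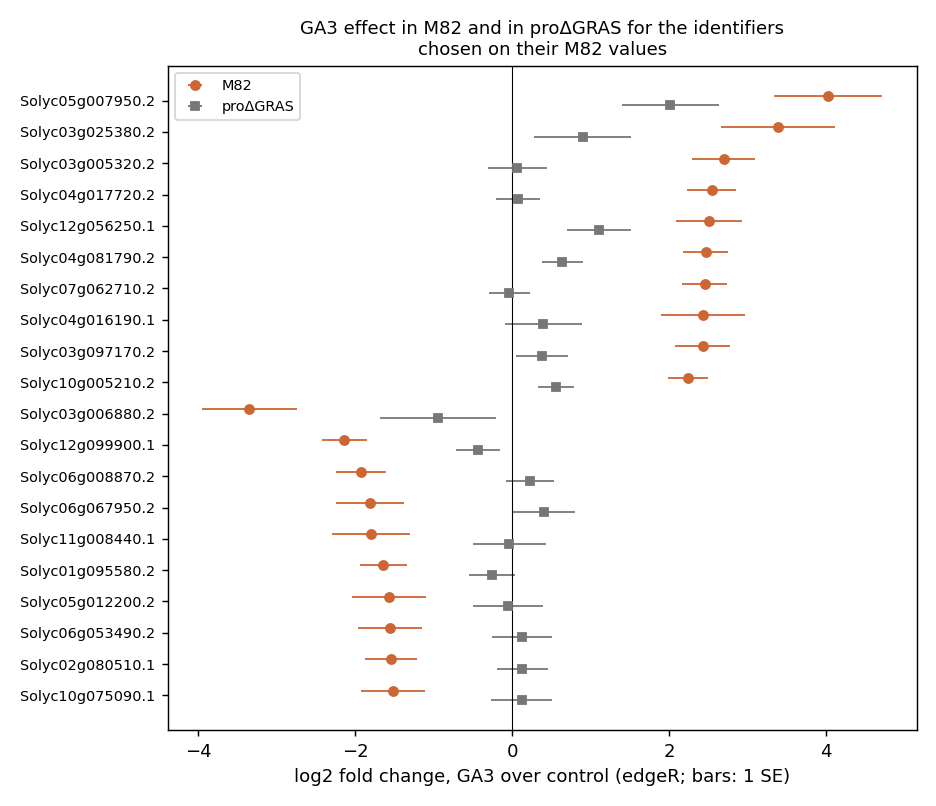
Log2 fold change of GA3 over control in M82 (orange circles) and in proΔGRAS (grey squares) for the 10 highest and 10 lowest identifiers, with bars of 1 SE from edgeR. The M82 values chose the identifiers, and the mutant values lie between -0.95 and 2.01.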

How the data were processed

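Young leaves were sequenced in 8 libraries, 2 in each of 4 groups. The authors deposited raw counts of reads per gene identifier, per the file headers, and 8 columns of DESeq-normalized counts that were not used. Tools named in the submitters' processing notes are DESeq2 1.6.3, HTSeq 0.6.1p1 and TopHat2 2.0.10. Counting options, annotation and genome build are not given in the sources used here. Per the labels' protocols the TruSeq v2 kit, which does not mark strand, was used, so antisense and overlapping genes cannot be told apart. The table names the mutant "null", and 3 columns (1 of them in M82) carry the number 3, which no title has, and were placed in their group only. Whether the replicates were separate plants is not stated, so the p-values reflect only how far the libraries differ, which may be technical.

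Genes were filtered with filterByExpr (minimum count 10), which kept 18340 genes with 99.94% of the counts, scaled with TMM. The robust quasi-likelihood test of edgeR 4.0.16 (R 4.3.3) was fitted to the 4 groups together, with 4 residual degrees of freedom. SE is the fitted change over the root of the F statistic. DESeq2 1.42.0 without independent filtering was an alternative, beside other scalings and filters, the 4 M82 libraries alone, the replicate block and each library left out. Identifiers named are those called, the 10 highest and 10 lowest fold changes (unadjusted p under 0.01, mean of at least 5 CPM, groups not overlapping), the 3 largest gains and losses in CPM, the 2 with most counts and none on the other side, runs of neighbours and the list. The members of runs of 2 were named after they were seen. Members and lists were chosen with earlier results of these data known. No sequence is printed, since the identifiers matched none in the tables used here.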

Additional observations from a re-analysis of the deposited data

How the results depend on the processing

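The 3 calls for GA3 in M82 were also made with RLE scaling (3). The count was 0 with library totals only, with the stricter filter (5 CPM in 2 libraries) and with the 4 M82 libraries alone, 92 without the filter, 33 (27 higher, 6 lower) with the replicate block and 108 with DESeq2, and all 3 were among the last 3 counts. With the block, 4 of the 10 lowest identifiers passed (edgeR adjusted p = 0.0297 to 0.0490 with the next 4). So did 4 of the 7 highest that edgeR had not called in the fit of the 4 groups. The block also passed 2 members of the runs of 2, Solyc03g114720.2 and Solyc04g074450.1 (edgeR adjusted p = 0.0391 and 0.0449). Leaving out 1 library gave 0 to 22, with 0 for 7 of the 8 libraries. The library numbers are not stated to pair samples: deviations from the group means correlated at 0.421 between the M82 libraries of number 1 and at 0.0545 between those of the mutant. The count of genes 2-fold or more apart in both pairs was 175, against 274 and 71 with floors of 1 and 20 CPM and 115 with the crossed pairing. With RLE scaling it was 173 and with library totals 165.

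Of 74 identifiers named and tested, 8, all of the list, changed sign under some alternative. The log2 fold change of Solyc07g066670.2 was -0.059 with library totals. With the replicate block those of Solyc08g074620.1 and Solyc08g074630.1 were 0.66 and 0.076. With single libraries left out the values ran from -1.26 to 4.13 for Solyc08g074620.1, from -0.94 to 1.34 for Solyc08g074630.1, from -1.25 to 1.46 for Solyc08g074680.2, from -0.60 to 1.37 for Solyc07g066670.2, from -1.11 to 1.26 for Solyc01g079200.2, from -1.55 to 1.54 for Solyc02g080120.1, from -1.11 to 0.27 for Solyc07g061720.2 and from -0.78 to 1.38 for Solyc07g061730.2. The causes were not tested. The other 66 kept their sign under every alternative run. With 2 libraries a group, counts of calls are limited by the spread between libraries as well as by depth.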
